A study of Mus musculus with 14 samples.

Results

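The EGF family of growth factors and the ErbB receptors were followed through puberty in the mouse mammary gland. The 9 genes are the ligands Egf, Tgfa, Hbegf, Btc, Ereg and Nrg1 and the receptors Egfr, Erbb2 and Erbb3. A gene was represented by the probe sets, the groups of short array probes for 1 transcript, whose platform annotation gives that symbol and no other. This gave 17 of the 22690 probe sets of the table, for 8 of the 9 genes: 5 for Egfr, 3 for Tgfa, 2 each for Hbegf, Btc and Erbb3, and 1 each for Egf, Ereg and Erbb2. No usable probe set was found for Nrg1, which is not analysed here.

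The tissue was the whole inguinal mammary gland (number 4) of untreated female CD1 mice, an outbred strain, taken at 3, 4, 5, 6 or 7 weeks of age after removal of the lymph node. RNA was hybridised to Affymetrix expression arrays, with 3 arrays at 3wk, 4wk, 6wk and 7wk (A, B and C) and 2 at 5wk (A and B), 14 in all. One array stands for a pool of RNA from 3 or more mice, and no age had a treated or mutant group. The labels do not say if the pools of an age came from separate mice, and a p-value here rests on how far pools differ.

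The family is a short relay between cells. The ligands are made as membrane proteins and are cut loose by proteases. EGF, TGF-alpha, HB-EGF, betacellulin and epiregulin bind EGFR, and HB-EGF, betacellulin and epiregulin also bind ERBB4, while the neuregulins bind ERBB3 and ERBB4. A bound receptor pairs with another: ERBB2 has no known ligand and ERBB3 has a weak kinase, so each acts mainly as a partner. In mouse mammary puberty, EGFR of the stroma is known to be needed for the growth of the ducts under oestrogen.

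Every value is a ratio, the signal of a probe set on an array over its median on the 14 arrays. Ratios compare ages within a probe set and say nothing of levels between genes. The values of an array are whole multiples of a step of its own, so that the level of a dim probe set could be recovered as a number of steps, which was done for 7648 probe sets. The step, in ratio units of the probe sets with a fixed divisor, was from 0.0593 on 7wk A to 0.101 on 4wk C. Probe sets that reached 200 steps on fewer than 2 arrays were left out. The same ratio of a probe set is more steps on 7wk A than on 4wk C, so this limit is not alike on all arrays. Of the 17 member probe sets, 15 were tested, for 7 genes. All 18 luminal, 12 basal and 10 adipocyte marker genes found on the array had a probe set above this limit. Below, a probe set passed where the adjusted p of limma, a linear model fitted to all arrays together, was under 0.05 over the 18480 probe sets tested.

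Of the 15 member probe sets, 4 passed the F test over the 5 ages, against 10.3% of all probe sets. These were 1 each of Erbb2, Erbb3, Tgfa and Btc. The adjusted p was smallest for those of Erbb2 and Erbb3, 0.00101 and 0.000697. Against 3wk, 3 of the 15 were higher at 5wk (2.39% of all probe sets were), 5 at 6wk (9.15%) and 2 at 7wk (5.95%). None was lower at these ages, where 1.24%, 4.58% and 2.6% of all probe sets were. No member passed at 4wk against 3wk, where 0.152% of all probe sets were called, nor from one week to the next (0.752%, 0.281% and 0.958% at 5wk against 4wk, 6wk against 5wk and 7wk against 6wk). At an unadjusted p under 0.05, the members in these 4 comparisons numbered 2, 6, 2 and 3 of 15, beside 1898, 2760, 1942 and 2587 of all 18480 probe sets. With so few arrays, it was common that the arrays of 2 ages did not overlap. This held for 7, 5 and 5 of the 15 members at 5wk, 6wk and 7wk against 3wk. The shares of all tested probe sets were 34.4%, 32.6% and 28.4%. At 4wk against 3wk it held for 2 members (15.2% of all) and at 5wk against 4wk for 7 (33.5%).

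**Figure D1:**
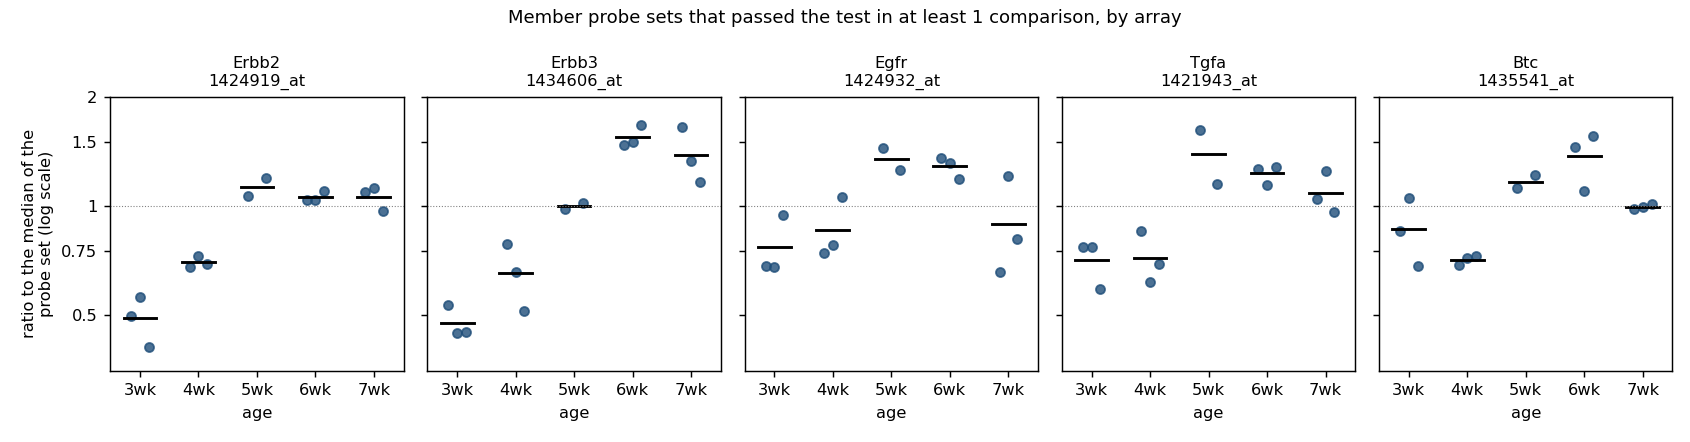
Ratio to the median of the probe set (log axis) on each array at 3wk to 7wk for the 5 member probe sets that passed in at least 1 comparison. Points are arrays and bars are means. All but Btc have their lowest means at 3wk, and all but Erbb2 have lower means at 7wk than at 6wk.

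Erbb2, the receptor that serves as the common partner of the family, had 1 probe set (1424919_at). Its ratios were 0.497, 0.561 and 0.408 at 3wk, in the order of arrays A, B and C used throughout. They were 0.679, 0.727 and 0.692 at 4wk, and 1.06 and 1.19 at 5wk. At 6wk they were 1.04, 1.04 and 1.095, and at 7wk 1.09, 1.12 and 0.964. The 3wk arrays lay below all others, the 4wk arrays came next, and the arrays of 5wk, 6wk and 7wk overlapped. On the log2 scale Erbb2 rose by 1.22 (standard error, SE, 0.15; adjusted p = 0.00194) at 5wk against 3wk, by 1.12 (SE 0.13; adjusted p = 0.000545) at 6wk and by 1.12 (SE 0.13; adjusted p = 0.000633) at 7wk, with limma and n = 3 arrays per age, 2 at 5wk. The change at 4wk against 3wk was 0.53 (SE 0.13; adjusted p = 0.179), and that at 5wk against 4wk 0.69 (SE 0.15; adjusted p = 0.0618). From 5wk on the differences were small: -0.09 (SE 0.15) at 6wk against 5wk and under 0.01 in size (SE 0.13) at 7wk against 6wk.

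Erbb3, the receptor for neuregulins that signals through its partners, had 2 probe sets, of which 1434606_at was the brighter. Its ratios were 0.532, 0.445 and 0.449 at 3wk and 0.786, 0.654 and 0.513 at 4wk. They were 0.981 and 1.02 at 5wk, 1.48, 1.498 and 1.68 at 6wk, and 1.65, 1.33 and 1.16 at 7wk. The 3 arrays at 6wk lay above both at 5wk, and those of 7wk overlapped with 6wk. Erbb3 rose by 1.08 (SE 0.20; limma adjusted p = 0.0136) at 5wk, 1.71 (SE 0.18; adjusted p = 0.000228) at 6wk and 1.53 (SE 0.18; adjusted p = 0.000531) at 7wk, each against 3wk. The change at 6wk against 5wk was 0.63 (SE 0.20; adjusted p = 0.301). Without 5wk A or 5wk B, which leaves 1 array at that age with its spread taken from the other ages, the rise at 5wk did not pass (adjusted p = 0.0766 and 0.1).

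The other Erbb3 probe set (1452482_at) was dim, at 26 to 240 steps. It reached 200 steps on 2 arrays, 7wk A and 7wk B, so that it was tested only through arrays on which it is high. Its ratios ran from 0.545 to 4.26 with no order by age, and the 7wk arrays alone held 2.78, 4.26 and 0.678. It passed in no comparison, and the SE of 0.75 at 7wk against 3wk shows how little it can resolve. With the mean of both probe sets in place of each, Erbb3 passed in no comparison. That mean carries the spread of the dim probe set, so it cannot decide on the change of the brighter one. At 6wk against 3wk its SE was 0.39, beside 0.18 for 1434606_at.

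The calls of Erbb2 against 3wk (5wk, 6wk and 7wk) and of Erbb3 1434606_at (6wk and 7wk) held in all 23 alternatives that keep probe sets apart. RNA from different cells is mixed in these samples, and fewer cells of a type and less RNA per cell cannot be told apart. The luminal epithelial marker list, 18 genes such as the adhesion molecules Epcam and Cdh1, moved with both receptors. All 18 passed the gene-level F test (10.9% of all genes did), and 17 were higher at 6wk and 18 at 7wk against 3wk. The mean log2 ratio of this list lay between -2.02 and -1.37 on the 3wk arrays, -1.21 and -0.706 at 4wk, 0.165 and 0.236 at 5wk, 0.198 and 0.937 at 6wk, and 0.463 and 0.616 at 7wk. Its median change at 7wk against 3wk was 2.06, larger than that of either receptor, while the median over all genes was 0.09. The basal and myoepithelial list was higher in 6 of 12 genes at 6wk and 5 at 7wk, with a median change of 1.17 and 0.68. Fat cell markers went the other way: 7 of 9 brown adipocyte markers were lower at both 6wk and 7wk, with medians of -2.40 and -3.01. Of 10 adipocyte markers, 3 were lower at each of these ages, with a median of -0.30 at both. Among all genes, 9.82% were higher and 4.29% lower at 6wk, and 7.13% higher and 2.99% lower at 7wk. The part of any of the cell types above in the change of the receptors was not tested.

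Schwann cells, which wrap nerves, also use ERBB3. In their list of 7 tested genes the medians were -0.21 at 6wk and -0.38 at 7wk against 3wk. Mbp, a myelin protein, fell by 0.72 (SE 0.16; limma adjusted p = 0.0149) at 6wk and by 1.19 (SE 0.16; adjusted p = 0.00129) at 7wk, and Pmp22, another, by 0.76 (SE 0.20; adjusted p = 0.0339) at 7wk. Sox10, a transcription factor of Schwann cells that mammary epithelium also expresses, rose by 1.13 (SE 0.26; adjusted p = 0.021) at 7wk. The mean log2 ratio of that list lay between -0.264 and -0.0683 at 7wk and between -0.194 and 0.291 at 3wk, and these ranges overlap. The part of these cells in the values of Erbb3 was not tested.

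**Figure D2:**
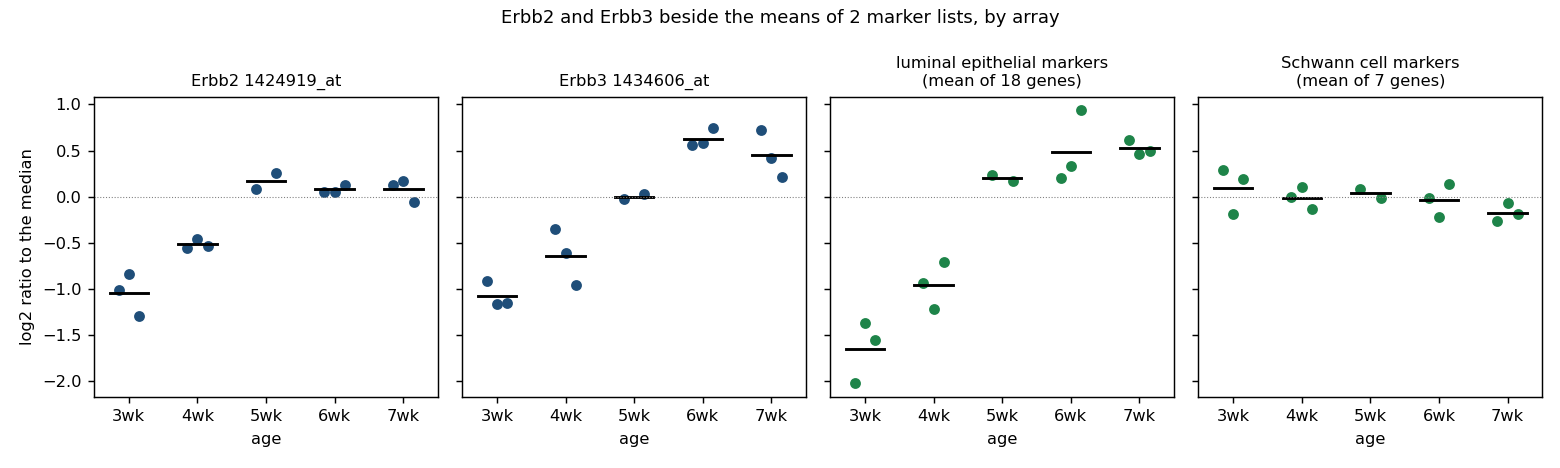
Log2 ratio of Erbb2 and Erbb3 and the mean log2 ratio of the luminal (18 genes) and Schwann cell (7 genes) marker lists on each array at 3wk to 7wk. Points are arrays and bars are means. The luminal list and both receptors have their lowest means at 3wk, and the Schwann cell list has its highest there.

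Egfr, the receptor for most ligands of the family, had 5 probe sets, and they did not move together. One, 1424932_at, had ratios of 0.681, 0.677 and 0.945 at 3wk and 0.742, 0.777 and 1.05 at 4wk. They were 1.44 and 1.25 at 5wk, 1.36, 1.31 and 1.19 at 6wk, and 0.656, 1.21 and 0.807 at 7wk. All arrays of 5wk and 6wk lay above those of 3wk and 4wk, and the 7wk arrays spread over both ranges. It was higher at 6wk against 3wk by 0.76 (SE 0.23; limma adjusted p = 0.0488), a call that was lost in 17 of 23 alternatives, among them quantile normalization (adjusted p = 0.0902) and the actin control as a covariate (adjusted p = 0.498). At 5wk against 3wk the change was 0.83 (SE 0.26; adjusted p = 0.107), at 7wk against 3wk 0.18 (SE 0.23; adjusted p = 0.693), and at 7wk against 6wk -0.58 (SE 0.23; adjusted p = 0.293).

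Fibroblasts of the stroma are known to express Egfr. Of 10 fibroblast markers, 2 were higher at 6wk and 2 higher and 1 lower at 7wk against 3wk. Their medians were 0.15 and 0.39. The shares of all genes were 9.82% higher and 4.29% lower at 6wk, and 7.13% higher and 2.99% lower at 7wk. The part of fibroblasts in the values of Egfr was not tested. The other 4 Egfr probe sets passed in no comparison. At 6wk against 3wk they stood at -0.42 (1432647_at, SE 0.29), 0.17 (1451530_at, SE 0.14), -0.34 (1454313_at, SE 0.23) and -0.20 (1460420_a_at, SE 0.15), so that 3 of the 4 had the opposite sign. With the mean of all 5, the change of Egfr at 6wk against 3wk was -0.01 (SE 0.13; limma adjusted p = 0.984). The files do not say which transcripts of Egfr each probe set reads. 1454313_at had ratios of 0.813, 0.994 and 0.740 at 6wk against 1.37 and 1.75 at 5wk, a difference of -0.88 (SE 0.26; limma adjusted p = 0.255). 1460420_a_at was the steadiest, between 0.836 and 1.13 on all arrays.

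Tgfa encodes TGF-alpha, a ligand of EGFR. Its probe set 1421943_at had ratios of 0.770, 0.769 and 0.588 at 3wk and 0.851, 0.616 and 0.690 at 4wk. They were 1.62 and 1.15 at 5wk, 1.26, 1.14 and 1.28 at 6wk, and 1.04, 1.24 and 0.960 at 7wk. The 6 arrays of 3wk and 4wk lay below the 8 later ones with no overlap. It rose by 0.96 (SE 0.21; limma adjusted p = 0.0273) at 5wk and by 0.80 (SE 0.18; adjusted p = 0.0158) at 6wk against 3wk, and stood at 0.61 (SE 0.18; adjusted p = 0.0636) at 7wk. At 5wk against 4wk the change was 0.94 (SE 0.21; adjusted p = 0.063). With the actin control as a covariate, the rise at 6wk against 3wk did not pass (limma adjusted p = 0.0578). The rise at 5wk did not pass without 5wk A (0.71; adjusted p = 0.212) or 3wk C (adjusted p = 0.0763), nor that at 6wk without 3wk C (adjusted p = 0.0572) or 6wk A (adjusted p = 0.0504).

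The other 2 Tgfa probe sets did not follow it. 1421942_s_at, dim at 92 to 458 steps, had 0.622 and 0.713 at 5wk and 1.49, 1.53 and 0.897 at 3wk, a change of -0.93 (SE 0.45; limma adjusted p = 0.316) at 5wk against 3wk. 1450421_at kept between 0.805 and 1.32 on all arrays, with changes from -0.23 to -0.01 against 3wk. With the mean of all 3, the change of Tgfa was under 0.01 in size at 5wk (SE 0.20; limma adjusted p = 0.998) and 0.12 (SE 0.18; adjusted p = 0.719) at 6wk, each against 3wk.

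Btc encodes betacellulin, a ligand of EGFR and ERBB4. Its probe set 1435541_at had ratios of 0.851, 1.05 and 0.682 at 3wk and 0.685, 0.716 and 0.724 at 4wk. They were 1.12 and 1.21 at 5wk, 1.45, 1.096 and 1.56 at 6wk, and 0.979, 0.991 and 1.01 at 7wk. The 3 arrays at 7wk, close together, lay below all of 5wk and 6wk and within the range of 3wk. Btc rose by 0.68 (SE 0.17; limma adjusted p = 0.0241) at 6wk against 3wk, and stood at 0.23 (SE 0.17; adjusted p = 0.482) at 7wk against 3wk and at -0.45 (SE 0.17; adjusted p = 0.269) at 7wk against 6wk. The call at 6wk was lost without 3wk A, 3wk C, 6wk A or 6wk C, with adjusted p from 0.0571 to 0.0806. The other Btc probe set (1421161_at) lay at 77 to 194 steps, below the limit on every array, and was not tested.

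**Figure D3:**
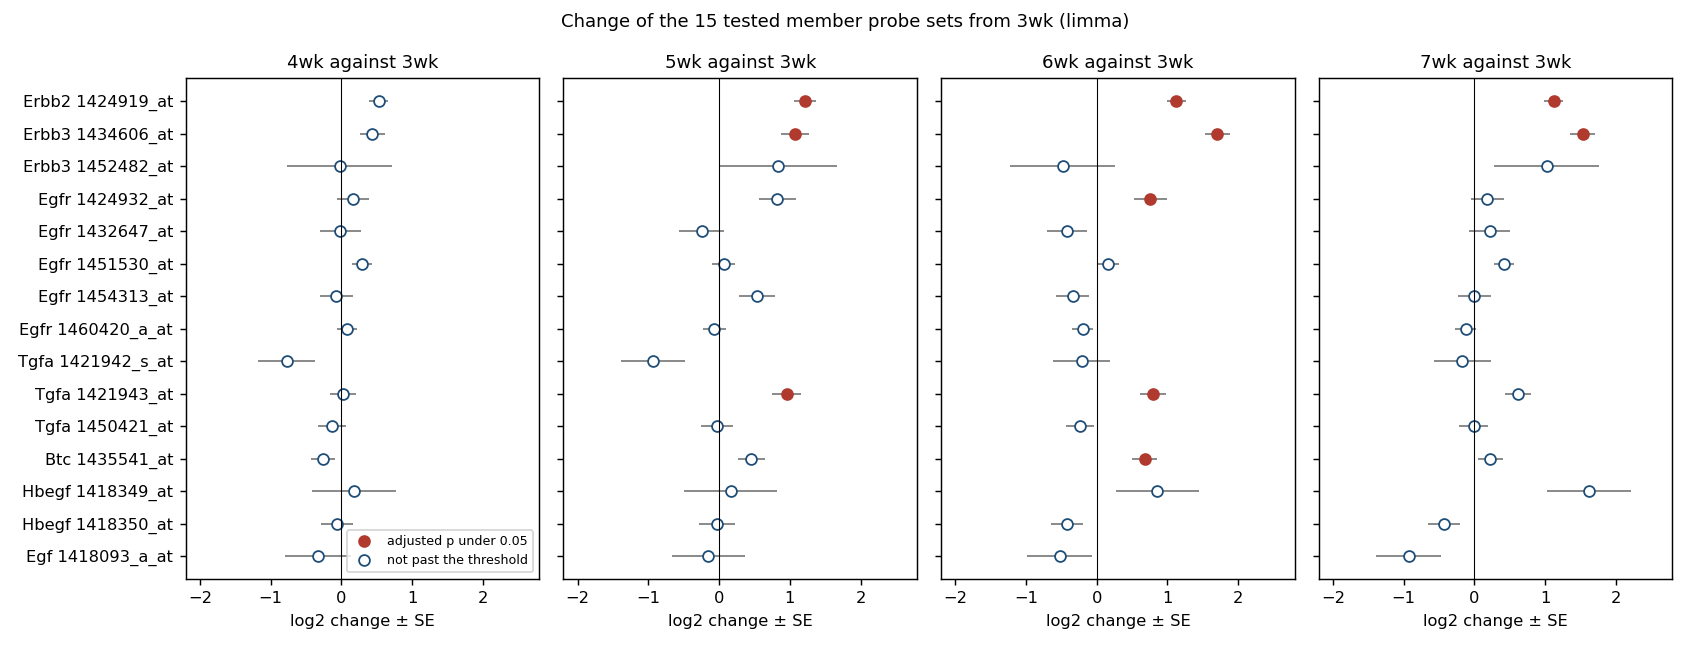
Log2 change ± SE from 3wk at 4wk, 5wk, 6wk and 7wk for the 15 tested member probe sets, from limma (n = 3 arrays per age, 2 at 5wk). Filled points have an adjusted p under 0.05: 3 at 5wk, 5 in the 6wk panel, 2 at 7wk and none in the 4wk panel.

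Hbegf, which encodes the heparin-binding ligand of EGFR and ERBB4, had 2 probe sets of opposite sign. 1418349_at was dim, at 37 to 396 steps. It reached 200 steps on 6wk B and the 3 arrays of 7wk, so that it was tested only through arrays on which it is high. Its ratios were 0.401, 0.410 and 1.30 at 3wk, 0.326, 0.643 and 1.47 at 4wk, 0.458 and 0.981 at 5wk, 0.724, 1.72 and 1.02 at 6wk, and 2.13, 1.5 and 1.96 at 7wk. The 7wk arrays lay above those of 3wk, by 1.62 (SE 0.59; limma adjusted p = 0.122), while those of the other ages overlapped with 3wk. 1418350_at, the brighter, had 0.830, 0.988 and 0.822 at 7wk against 1.16, 1.499 and 0.945 at 3wk, a change of -0.43 (SE 0.22; adjusted p = 0.289).

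Egf, which encodes the founding ligand of the family, had 1 probe set (1418093_a_at), at 92 to 405 steps. Its ratios were 1.55, 0.764 and 1.47 at 3wk, 0.814, 1.06 and 1.01 at 4wk, 1.07 and 1.09 at 5wk, 0.474, 1.62 and 0.763 at 6wk, and 0.988, 0.357 and 0.718 at 7wk. The 7wk and 3wk arrays overlapped, and the change between them was -0.93 (SE 0.46; limma adjusted p = 0.262). Ereg, which encodes epiregulin, lay at 27 to 141 steps and was not tested. Its ratios spread from 0.397 to 2.04, and the 5wk arrays alone held 0.397 and 1.72.

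Of 6 other members of the family looked for, 4 had a usable probe set: Epgn, Nrg3, Nrg4 and Erbb4. Erbb4, the remaining receptor, lay at 2 to 22 steps and the 2 Nrg3 probe sets at 4 to 141 steps, too dim to test. Epgn, which encodes epigen, stood at -0.58 (SE 0.20; limma adjusted p = 0.0771, gene level) at 6wk against 3wk, and Nrg4, a neuregulin, at -0.25 (SE 0.23; adjusted p = 0.513). Areg and Nrg2 are not analysed here.

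**Figure D4:**
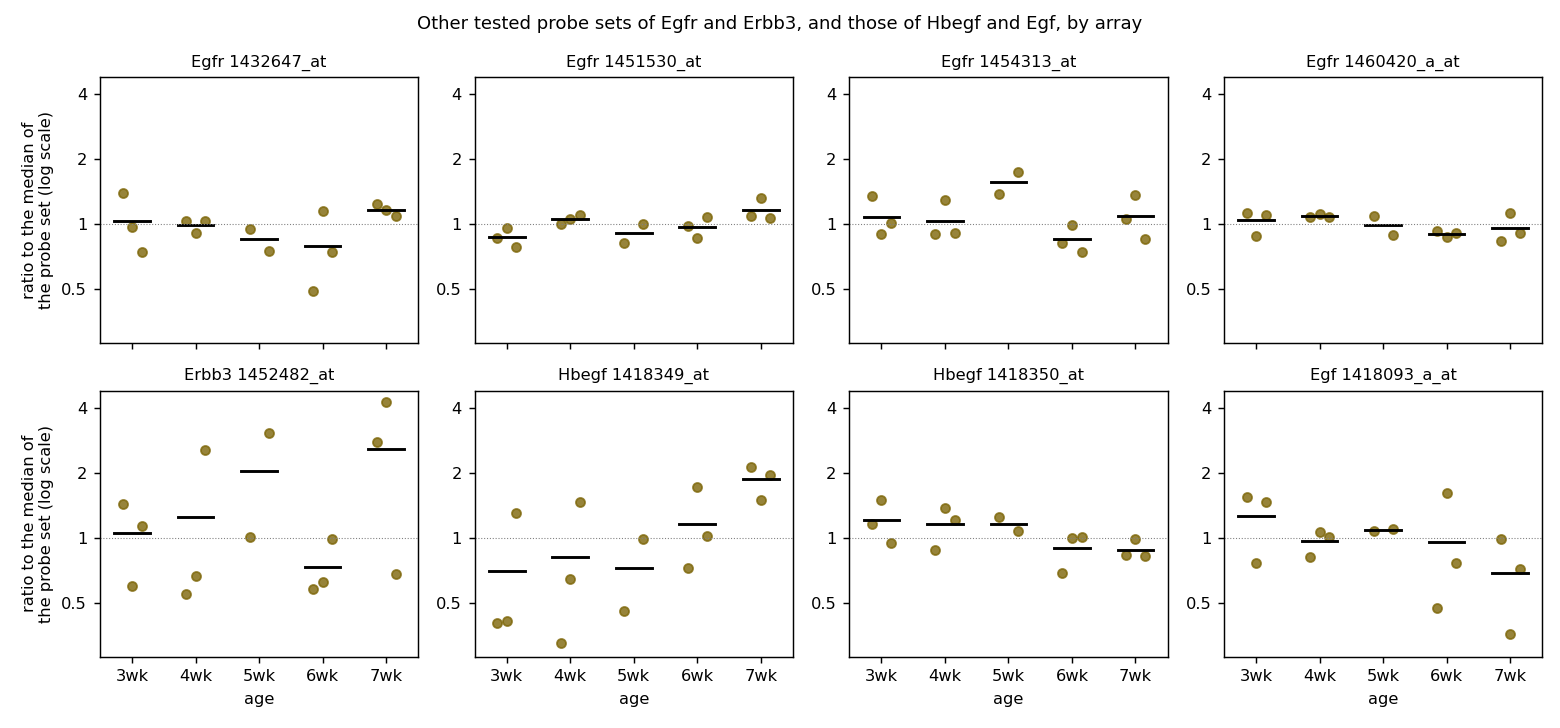
Ratio to the median of the probe set (log axis) on each array at 3wk to 7wk for the other tested probe sets of Egfr and Erbb3 and those of Hbegf and Egf. Points are arrays and bars are means. Erbb3 1452482_at spreads from 0.545 to 4.26 without order, and none of the 8 passed in any comparison.

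The 5 probe sets that passed in some comparison were set against each other within each array, as the log2 ratio of one to the other, in 10 pairs picked after their values were seen. That ratio was put to a permutation test over the 5 ages (100000 resamples of the 14 arrays, adjusted over the 10 pairs). A gene name here stands only for its probe set that passed, which for Erbb3 is the brighter. Other probe sets of Erbb3, Egfr and Tgfa did not follow these and were not paired. The probe sets were picked for their change with age on the same arrays, so the p-values carry that selection. For Erbb3 against each of the other 4, the adjusted p was under 0.05. The log2 ratio of Erbb3 to Btc was 0.46 ± 0.28 (SD, n = 3) at 7wk and -0.84 ± 0.35 at 3wk (permutation adjusted p = 0.0086). The ratio of Erbb2 to Erbb3 was 0.03 ± 0.26 at 3wk and 0.17 ± 0.08 at 5wk, and then -0.55 ± 0.06 at 6wk and -0.37 ± 0.20 at 7wk (permutation adjusted p = 0.039). On the log2 scale all 6 arrays of 6wk and 7wk lay below those of the earlier ages. For Tgfa to Erbb3 the permutation adjusted p was 0.0182 and for Egfr to Erbb3 0.039. Erbb2 and Btc also differed (permutation adjusted p = 0.0086). The other 5 pairs, all among Tgfa, Egfr, Btc and Erbb2, had permutation adjusted p from 0.11 to 0.549, which does not show that they ran alike.

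Of the 5 genes with a probe set that was higher at 6wk against 3wk, the promoters of Erbb2, Egfr, Tgfa and Btc are shown, from the RefSeq table of GRCm38.p6, and that of Erbb3 is not. Each sequence is the 250 bases before the annotated start, 5' to 3' on the strand of the gene. Capitals mark matches, on either strand, to the GC box GGGCGG bound by SP1, the CCAAT box, the TATA box TATAAA and the AP-2 motif GCCNNNGGC, of which the matches to GGGCGG and GCCNNNGGC overlap in Tgfa.
Erbb2, chr11:98412234-98412483, plus strand: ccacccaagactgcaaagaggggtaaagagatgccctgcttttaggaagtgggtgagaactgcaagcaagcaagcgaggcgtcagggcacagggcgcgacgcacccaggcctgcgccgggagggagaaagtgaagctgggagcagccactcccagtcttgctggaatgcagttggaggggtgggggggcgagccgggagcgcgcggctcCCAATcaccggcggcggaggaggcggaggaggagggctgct
Egfr, chr11:16751953-16752202, plus strand: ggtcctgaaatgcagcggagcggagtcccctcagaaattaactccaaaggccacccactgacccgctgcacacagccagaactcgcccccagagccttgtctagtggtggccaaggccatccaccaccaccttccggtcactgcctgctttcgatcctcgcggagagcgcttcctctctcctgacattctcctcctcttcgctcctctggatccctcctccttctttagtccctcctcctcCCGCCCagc
Tgfa, chr6:86194972-86195221, plus strand: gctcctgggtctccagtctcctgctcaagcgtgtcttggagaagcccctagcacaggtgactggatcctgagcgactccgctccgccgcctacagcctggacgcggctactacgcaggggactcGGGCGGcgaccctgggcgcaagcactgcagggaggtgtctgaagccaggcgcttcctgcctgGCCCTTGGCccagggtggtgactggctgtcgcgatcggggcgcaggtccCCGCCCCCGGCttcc
Btc, chr5:91402995-91403244, minus strand: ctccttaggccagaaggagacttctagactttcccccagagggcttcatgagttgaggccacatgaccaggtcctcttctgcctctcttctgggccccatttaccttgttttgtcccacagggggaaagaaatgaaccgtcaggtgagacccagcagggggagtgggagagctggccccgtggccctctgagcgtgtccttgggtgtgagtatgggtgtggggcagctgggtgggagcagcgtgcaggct

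GGGCGG occurred in the Egfr window (1 match) and the Tgfa window (2 matches), and in 32.7% of the 32851 windows of this length in the table. CCAAT occurred once in Erbb2 (33.8% of all windows), GCCNNNGGC in 2 places in Tgfa (13.7%), and TATAAA in none of the 4 (12.4%). No motif searched was shared by all 4, and the Btc window held none of them. The GC content was 66% for Erbb2, 60.8% for Egfr, 69.2% for Tgfa and 59.6% for Btc, against a median of 52.4% over all windows.

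In the RefSeq gene order, Erbb2 is followed by Mien1 and then Grb7, whose product is an adaptor that binds ERBB2. Grb7 rose by 1.08 (SE 0.18; limma adjusted p = 0.00849, gene level) at 5wk, by 1.06 (SE 0.16; adjusted p = 0.00222) at 6wk and by 1.29 (SE 0.16; adjusted p = 0.000832) at 7wk against 3wk. From 3wk to 7wk its mean ratios were 0.532 ± 0.0751, 0.759 ± 0.0630, 1.12 ± 0.105, 1.11 ± 0.176 and 1.30 ± 0.202 (SD, n = 3, but 2 at 5wk). For Erbb2 the same means were 0.489 ± 0.0768, 0.699 ± 0.0248, 1.13 ± 0.0948, 1.06 ± 0.0335 and 1.06 ± 0.0830. Mien1, between them, rose by 0.56 (SE 0.14; adjusted p = 0.0297) at 7wk. On the other side, Tcap and Pnmt passed at none of these ages, and Pgap3, directly beside Erbb2, had no usable probe set. Of the 6 protein-coding neighbours of Erbb3 that were looked at, 3 on each side, Suox rose by 0.60 (SE 0.13; adjusted p = 0.0121) at 6wk and by 0.61 (SE 0.13; adjusted p = 0.0136) at 7wk, and the other 5 did not pass. Among these, Ikzf4 stood at 2.14 (SE 0.59; limma adjusted p = 0.0653) at 5wk. It stood at 1.30 (SE 0.53; limma adjusted p = 0.129) at 6wk and at 1.68 (SE 0.53; limma adjusted p = 0.0696) at 7wk.

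The patterns most like those of the members were found by Pearson's r of log2 ratios over the same 14 arrays, which shared the age effect, and are given as a description. Nearest to Erbb2 were Csn3, the kappa casein of milk (r = 0.977), Ano1, a chloride channel (0.972), and Plet1, a surface protein of epithelia (0.968). Nearest to Erbb3 1434606_at were Tnfrsf21, a death receptor (r = 0.971), Trim46 (0.964) and Bcl2l11, the pro-apoptotic protein BIM (0.962). For Tgfa 1421943_at they were Foxj3 (r = 0.943), Rars (0.930) and Gas5 (0.914), for Btc 1435541_at Smc1a (r = 0.910), Aprt (0.901) and Clca1 (0.894), and for Egfr 1424932_at Riok2 (r = 0.868), Spata5 (0.865) and Elovl1 (0.865).

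Genes that act with the family were taken from 5 lists and given as the mean of a gene's probe sets, adjusted over 10672 genes. Of 10 receptor partners tested, 4 were higher at 5wk against 3wk (3.02% of all genes were), 5 at 6wk (9.82%) and 4 at 7wk (7.13%). None was lower, against 1.64%, 4.29% and 2.99% of all genes at these ages. Their median change was 0.69 at 6wk, against 0.07 over all genes. Sdc1, a heparan sulphate proteoglycan of epithelial surfaces, rose by 2.44 (SE 0.22; limma adjusted p = 0.000422) at 5wk, 2.64 (SE 0.20; adjusted p = 3.37e-05) at 6wk and 1.89 (SE 0.20; adjusted p = 0.000238) at 7wk. Cd9, a tetraspanin that binds the precursor of HB-EGF, rose by 1.32, 1.87 and 1.46 (SE 0.25, 0.22 and 0.22). Muc1, a mucin of the apical surface, was higher by 5.47 (SE 0.83) at 7wk, and Gpc1, a glypican, by 1.97 (SE 0.43) at 6wk. Cd44, a hyaluronan receptor that can carry HB-EGF, stood at 0.72 (SE 0.23; adjusted p = 0.0696) at 7wk. Sdc1 and Muc1 are also genes of epithelial cells, whose markers moved at the same ages as given above. Muc1 is counted in the luminal list too. Grb7, given above as a neighbour of Erbb2, is also counted among these partners.

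Of 10 genes of ligand shedding, 1 was higher at 6wk and 1 higher and 1 lower at 7wk against 3wk. The shares of all genes were 9.82% higher at 6wk, and 7.13% higher and 2.99% lower at 7wk. The median of the list was -0.04 at 6wk. Adam10, the main sheddase of EGF and betacellulin, rose by 0.90 (SE 0.15; limma adjusted p = 0.0027) at 6wk and 0.61 (SE 0.15; adjusted p = 0.0221) at 7wk. Adam12, a metalloprotease, fell by 0.68 (SE 0.18; adjusted p = 0.0326) at 7wk. The mean ratio of Adam10 was 1.46 ± 0.176 at 6wk and 0.784 ± 0.0742 at 3wk (SD, n = 3 each).

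Of 31 adaptors and signal relay genes, 3 were higher and 1 lower at 6wk, near the share of all genes (9.82% and 4.29%), with a median of 0.10. Nck2, an adaptor that links receptors to actin, rose by 1.99 (SE 0.33; limma adjusted p = 0.00748) at 5wk, 2.12 (SE 0.30; adjusted p = 0.00122) at 6wk and 2.31 (SE 0.30; adjusted p = 0.000832) at 7wk. Gab1, a docking protein, rose by 0.79 (SE 0.16) at 6wk and 0.58 (SE 0.16) at 7wk, and Akt2, a kinase of insulin and growth factor signalling, fell by 0.97 (SE 0.21; adjusted p = 0.0122) at 6wk. The third gene that was higher at 6wk, Jak2, a kinase of cytokine receptors, stood 0.69 above 3wk (adjusted p = 0.0347). Pik3r1, a subunit of PI3 kinase, stood at -0.43 (SE 0.22; adjusted p = 0.223) at 6wk and 0.46 (SE 0.22; adjusted p = 0.229) at 7wk.

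Feedback inhibitors were higher in 1 of 20 at 5wk, 4 at 6wk and 1 at 7wk, against 3.02%, 9.82% and 7.13% of all genes. None was lower, and the median was 0.31 at 6wk. Dusp6, the phosphatase that switches off ERK and is induced by it, rose by 1.22 (SE 0.26; limma adjusted p = 0.0223) at 5wk and 1.32 (SE 0.23; adjusted p = 0.00425) at 6wk, and stood at 0.68 (SE 0.23; adjusted p = 0.0952) at 7wk. Its mean ratios, from 3wk to 7wk, were 0.636 ± 0.146, 0.738 ± 0.183, 1.46 ± 0.0361, 1.58 ± 0.313 and 1.01 ± 0.187 (SD, n = 3, but 2 at 5wk). Ptpn1, a phosphatase of receptors, rose by 0.67 (SE 0.14) at both 6wk and 7wk. Rasa1, which turns RAS off, rose by 0.53 (SE 0.11) and Spred1, an inhibitor of RAF, by 0.66 (SE 0.16) at 6wk, and neither passed at 7wk. Errfi1, a direct inhibitor of ErbB kinases, stood at 0.61 (SE 0.26; adjusted p = 0.138) at 6wk, and Spry2 at 0.31 (SE 0.25; adjusted p = 0.453).

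Transcripts that growth factors are known to induce were higher in 4 of 22 at 5wk, 5 at 6wk and 4 at 7wk against 3wk, where 3.02%, 9.82% and 7.13% of all genes were. None was lower, and the median was 0.33 at 6wk. Jun rose by 1.04 (SE 0.16), 0.96 (SE 0.14) and 0.99 (SE 0.14) at these ages, with limma adjusted p of 0.00447, 0.00155 and 0.0015. Fos, its partner, rose by 1.30 (SE 0.25), 1.39 (SE 0.23) and 1.15 (SE 0.23). The same ages gave rises of 1.14 (SE 0.23), 1.49 (SE 0.21) and 1.56 (SE 0.21) for Phlda1 and of 0.96 (SE 0.21), 1.28 (SE 0.19) and 0.84 (SE 0.19) for Ier3. Egr2, a transcription factor, rose by 2.04 (SE 0.49; adjusted p = 0.0194) at 6wk. Ccnd1, the cyclin of entry into the cell cycle, stood at 0.62 (SE 0.21; adjusted p = 0.0697).

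**Figure D5:**
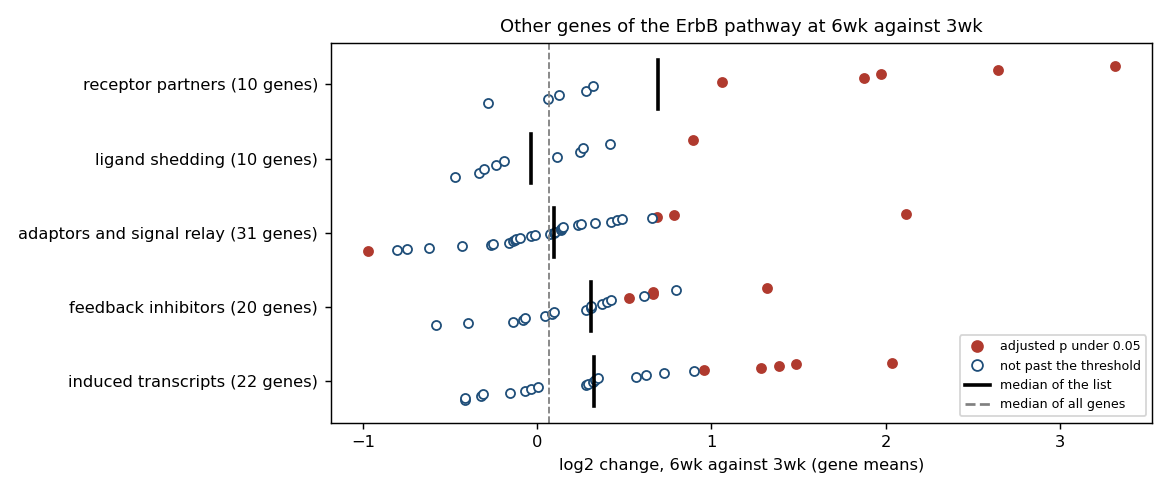
Log2 change at 6wk against 3wk of the tested genes of 5 lists, each point a gene (mean of its probe sets). Filled points have an adjusted p under 0.05, the black bar is the median of the list, from -0.04 for ligand shedding to 0.69 for receptor partners, and the dashed line is the median of all genes (0.07).

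Control probe sets moved with age too. The actin control, 5' over 3' on the log2 scale, lay between -0.792 and -0.0848 at 6wk and between -0.0590 and 0.182 at 3wk, and the mean of 18 hybridisation spikes between -1.86 and -0.789 at 7wk and between -0.233 and 0.557 at 3wk. The pyruvate carboxylase control, 5' over 3', averaged -2.37 ± 0.50 (SD, n = 3) at 6wk and -0.09 ± 0.51 at 3wk. The actin ratio and the spikes were fitted as covariates, and the part of the pyruvate carboxylase ratio was not tested. With the actin ratio as a covariate, 3 member probe sets were called at 6wk against 3wk (the main count was 5), and with the spikes 2 at 7wk (main count 2). Without 6wk A and 6wk B, which leaves 1 array at 6wk that is assumed to vary as the arrays of the other ages do, the 2 calls at 6wk were those of Erbb2 and Erbb3 1434606_at.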

How the data were processed

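The deposited table gives linear ratios: 98.5% of 22690 probe sets have a median of 1 within 0.001 over the 14 arrays, so the authors had divided each by its median. In 337 probe sets a fixed divisor was used, and there the values of an array are whole multiples of 1 step, from which dim levels were recovered. In simulated data all levels of 20 to 200 steps were recovered, and none above 400. Of 300 simulated probe sets at 200 to 400 steps, 33.7% were recovered, and 0.333% were recovered wrongly. Lower levels were not simulated. No source used here names the software behind the signals. For the fits, log2 was taken of the ratios as they stand. The 64 control probe sets and 4146 dim ones were left out, which left 18480.

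The 14 arrays were fitted together by age in R 4.3.3 (limma 3.58.1), with an F test and 7 contrasts, two-sided and adjusted by Benjamini-Hochberg. Member pairs were compared with a permutation test written with numpy 2.4.6, and figures made with matplotlib 3.10.9. By the platform annotation, 20380 probe sets have 1 gene symbol, 691 have several and 1555 have none. Named genes are the members, up to 6 of each pathway list and 3 of each cell type list by the F test, and for each tested member probe set the 3 nearest patterns by r. The genes beside Erbb2 and Erbb3, Jak2 and the pairs were added after values were seen. The members and lists were chosen with earlier results of these data known. In simulated data with 200 of 18480 probe sets changed, 46% of changes of 1 on the log2 scale were called at 7wk against 3wk, and 80% of those of 2. The real comparison called 1580 probe sets, far more than were changed there. The adjustment depends on that number, so these shares do not carry over to it. No 2 arrays held identical values.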

Additional observations from a re-analysis of the deposited data

How the results depend on the processing

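Over 24 alternatives, the number of member probe sets called stayed within 1.5 times of the value given, except as follows. The F test called 2 (against 4) with the mean of the probe sets of a gene, with the hybridisation or the actin controls as a covariate, and without 6wk A and 6wk B. At 5wk against 3wk the gene means gave 1 (against 3), at 6wk against 3wk 2 (against 5) and at 7wk against 3wk 1 (against 2). With gene means, which count genes, Erbb3, Tgfa and Egfr passed in no comparison. The mean of Erbb3 includes the dim 1452482_at. At 6wk against 3wk the actin covariate gave 3 and the fit without 6wk A and 6wk B 2. At 5wk against 4wk the array weights gave 1 (against 0), Erbb2. Leaving out 1 array at a time gave 1 to 3 at 5wk, 2 to 5 at 6wk and 2 to 3 at 7wk, each against 3wk, and 3 to 5 in the F test. Of single calls in the 23 alternatives that keep probe sets apart, the F test was lost for Tgfa 1421943_at in 3 and for Btc 1435541_at in 9, and no call turned its direction. It was not settled if the replicate letters pair the arrays. Deviations from the age means correlated between -0.0686 and 0.0846 (median 0.014) in the 26 same-letter pairs of arrays. In the 52 other-letter pairs they correlated between -0.12 and 0.0887 (median -0.0117). Of the 14 arrays, 8 correlated best with an array of their own letter. These small values do not exclude pairing. With the replicate block the F test called 3 members, and 4 were called at 6wk against 3wk. Over all probe sets, the F test called 1912, against 870 with the actin covariate, 1037 with the hybridisation covariate and 1012 without 6wk A and 6wk B, and at 6wk against 3wk the calls were 2536, against 579 with the actin covariate. At 7wk against 3wk they were 1580, against 352 with the hybridisation covariate. Precision is limited by the few arrays of an age, and it was lower for the dim probe sets tested than for Erbb2. At 7wk against 3wk the SE was 0.75 for Erbb3 1452482_at and 0.59 for Hbegf 1418349_at. It was 0.46 for Egf and 0.40 for Tgfa 1421942_s_at, beside 0.13 for Erbb2.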
